A study of Saccharomyces cerevisiae with 28 samples.

Results

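The HS baker's yeast (Saccharomyces cerevisiae) after fermentation in 50% sucrose was compared with the same yeast in 5 to 20% sucrose, across all S. cerevisiae probe sets of the array. The comparison takes 8 of the study's 28 arrays: the 2 HS arrays at 50% sucrose against the 6 HS arrays at 5, 10 and 20%, pooled as 1 group. Of the 10928 probe sets in the deposited table, 5498 carried a single S. cerevisiae gene symbol and stood for 5449 genes. The study measured poly(A) RNA of 2 baker's yeasts, which the labels call LS and HS without saying what the letters stand for, after 60 min of fermentation at 0, 5, 10, 20, 30, 40 or 50% sucrose, with 2 arrays for each yeast and concentration. All groups used here shared the fermentation time and the medium, called LF in the labels, and differed in sucrose and, in the last comparison, in the yeast. The labels name no strain, genotype or mutation, and they do not say whether the 2 replicates of a group came from separate cultures, so each p-value reflects no more than how these arrays scattered, which may be technical.

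Concentrated sugar draws water out of a yeast cell, and the cell answers through the high osmolarity glycerol (HOG) pathway, in which membrane sensors activate the protein kinase Hog1 and the cell makes and retains glycerol. Sucrose is split outside the cell by invertase into glucose and fructose, and glucose in turn represses genes for respiration, for gluconeogenesis and for the use of other carbon sources. Trehalose and glycogen are the storage carbohydrates of yeast, and trehalose also protects proteins and membranes when water is scarce. Cells that stop dividing in G1 lower the transcripts of the G1 cyclins and of the DNA replication machinery.

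The deposited values are ratios, scaled per array and then per gene, so that a gene's median over the 28 arrays is 1, and a level is read only against the same gene on other arrays. The median ratio of the S. cerevisiae probe sets lay between 0.825 and 1.07 on the 14 HS arrays. The interquartile range of their log2 ratios was 0.729 to 0.882 on the 6 arrays at 5 to 20% and 1.33 and 1.57 on the 2 arrays at 50%. The S. pombe probe sets of the array, which no S. cerevisiae transcript was designed to match, had median ratios of 0.234 to 0.461 at 5 to 20% and of 0.385 and 0.15 at 50%. The correlation of the 2 replicates across probe sets was 0.646 at 50%, and the SD within the pair was 0.820 on the log2 scale against 0.491 to 0.578 at 5, 10 and 20%.

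Transcript levels at 50% sucrose differed from those at 5 to 20% for 2740 of the 5498 probe sets (49.8%), of which 1226 were higher (22.3%) and 1514 lower (27.5%) at an adjusted p under 0.05 (limma on log2 ratios, 2-sided, Benjamini-Hochberg over all 5498 probe sets). Every list described below has to be read against these shares, since any set of genes would hold many that passed. The median log2 change over all genes was −0.13, and after quantile normalization or median centring of the arrays it was −0.05 and −0.01, so small changes depend on the scaling. The total called fell to 1009 when a fold of at least 2 was required, to 934 when all 28 arrays shared the estimate of the spread, and to 1758 when each group of arrays was weighted by its own spread. Poly(A) RNA of a whole culture was measured, so a lower level in every cell and a loss of the cells that expressed a gene cannot be told apart.

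**Figure D1:**
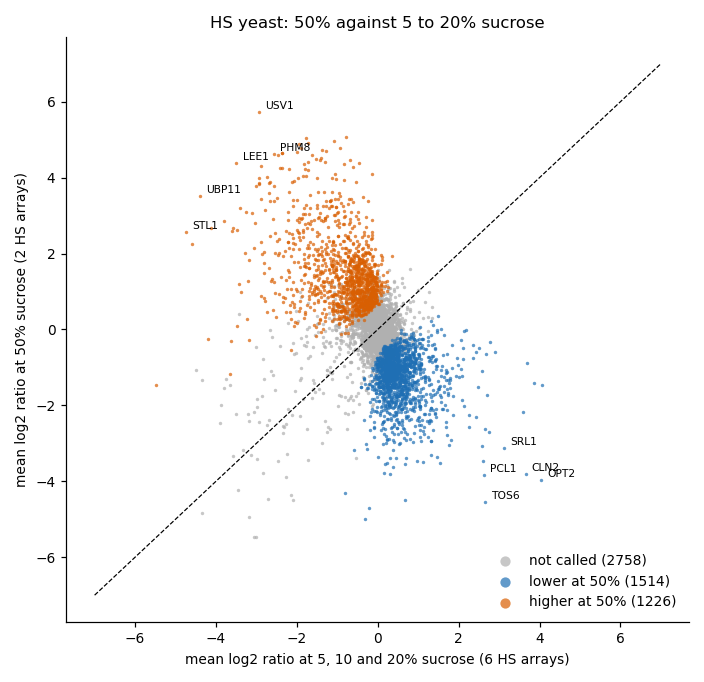
Mean log2 ratio of each of the 5498 S. cerevisiae probe sets at 5 to 20% sucrose (x axis, 6 HS arrays) and at 50% sucrose (y axis, 2 HS arrays), with the 1226 higher probe sets in orange, the 1514 lower ones in blue and the others in grey. The dashed line marks equal levels, and the labels mark the 5 largest rises and the 5 largest falls among genes whose groups do not overlap.

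The 10 largest rises included transcription factors, a glycerol importer, inhibitors of vacuolar proteinases and genes of respiratory growth and starvation. USV1, a zinc finger transcription factor of growth on nonfermentable carbon, had ratios of 35.3 and 80.3 on the 2 arrays at 50%, against a median of 0.208 and a range of 0.0327 to 0.345 on the 6 arrays at 5 to 20%. Its log2 change was 8.67 ± 0.88 (SE; limma, adjusted p = 8.9e-06), the largest of all. Both arrays at 50% lay above all 6 at the lower concentrations, as the choice of the 10 genes required. These were taken from called probe sets whose 2 groups of arrays did not overlap. Next came UBP11, coding for a ubiquitin protease (7.89, adjusted p = 7e-06), and LEE1, a zinc finger protein of unknown function (7.88, adjusted p = 9.3e-05). STL1, the plasma membrane symporter that carries glycerol into the cell with protons, rose from a median of 0.0374 (range 0.0239 to 0.0594) to 8.38 and 4.14, which is a 158-fold difference of the groups' geometric means (7.31 ± 0.57 on the log2 scale, adjusted p = 2.4e-06). PHM8, a phosphatase of nucleotide breakdown, stood at 24.6 and 24.9 against a median of 0.168 and a range of 0.0812 to 0.340. The 2 arrays at 50% agreed within 2% for PHM8 and differed by more than 4-fold for LEE1, PAI3 and ATG39, with the second replicate the higher in each. PAI3, the cytoplasmic inhibitor of the vacuolar proteinase A, changed by 7.20 ± 0.54, and ATG39, a receptor for autophagy of the nuclear envelope, by 7.06 ± 0.72. RGI2, which is needed for energy metabolism under respiratory conditions, changed by 7.03 ± 0.49 and SPG4, needed for survival in stationary phase, by 7.01 ± 0.57. YHR138C, related to an inhibitor of vacuolar proteinase B, changed by 6.92 ± 0.36 and had the smallest adjusted p of the 10 (4.7e-07).

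The 10 largest falls, chosen in the same way, were those of the oligopeptide transporter OPT2, of 5 genes of the cell cycle and of 4 genes for cell wall proteins. By that choice both arrays at 50% lay below all 6 others in each. OPT2 stood at 0.0170 and 0.241 on the arrays at 50%, against a median of 15.5 and a range of 11.9 to 21.6 at 5 to 20%, a log2 change of −8.00 ± 0.90 (adjusted p = 1.9e-05). CLN2, a G1 cyclin that drives budding and entry into S phase, stood at 0.0238 and 0.214 against a median of 12.7 and a range of 7.81 to 19.7, a change of −7.46 ± 0.85 (adjusted p = 2.1e-05). In both genes the first replicate was the lower of the 2 at 50%. TOS6, a cell wall protein regulated in G1, changed by −7.18 ± 0.58, and PCL1, a cyclin of the kinase Pho85 that acts in G1, by −6.46 ± 0.76. SRL1, a mannoprotein of the cell wall, changed by −6.25 ± 0.43. RNR1, the large subunit of ribonucleotide reductase, stood at 0.0606 and 0.134 against a median of 5.87 and a range of 5.00 to 8.62. Its change was −6.07 ± 0.44 (adjusted p = 1.8e-06). SIM1 and SCW10, both coding for proteins of the cell wall, changed by −5.75 ± 0.45 and −5.64 ± 0.64. CLB6, an S phase cyclin, changed by −5.52 ± 0.45, and MCD1, a subunit of the cohesin that holds sister chromatids together, by −5.46 ± 0.71. Each of these 20 rises and falls stayed called when any 1 of the 8 arrays was left out.

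**Figure D2:**
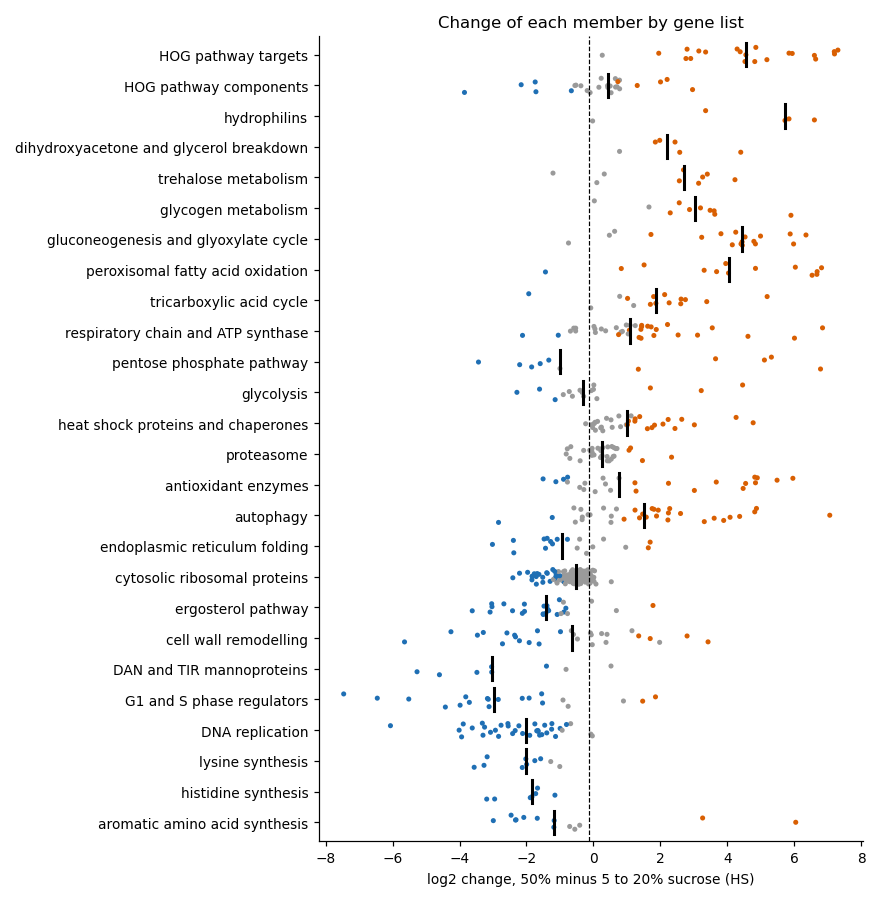
Log2 change from 5 to 20% to 50% sucrose of each measured member (points) of 26 of the 66 gene lists, with a black bar at the list's median. Points in orange or blue were called higher or lower and grey points were not, and the dashed line is the median of all genes, −0.13.

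Genes that the HOG pathway is known to induce were higher at 50% sucrose. Of 21 measured targets 20 rose and 0 fell, with a median log2 change of 4.56 against −0.13 for all genes and a share of 22.3% called higher. The exception was HOR7, a small protein of the osmotic response (0.26 ± 0.61, adjusted p = 0.75). Without sucrose the median change of the target list, also against the 5 to 20% arrays, was 4.18. The list was thus high without sucrose as well as at 50%. GPD1, the glycerol 3-phosphate dehydrogenase that limits glycerol synthesis, stood at 5.49 and 3.52 on the arrays at 50%, against a median of 0.111 and a range of 0.0753 to 0.223 at 5 to 20%. Its log2 change was 5.18 ± 0.60 (adjusted p = 2.2e-05), a 36.4-fold rise without overlap. GPP2, the glycerol phosphatase induced by osmotic stress, stood at 3.24 and 1.90 against a median of 0.635 and a range of 0.452 to 1.08 and rose by less (1.95 ± 0.48, adjusted p = 0.0047), and it lost its call when the first replicate at 50% was left out. The isoenzyme GPD2, which serves redox balance without oxygen, did not pass and stood at 1.52 and 0.322 against a median of 1.09 and a range of 0.818 to 2.14. GRE2, a methylglyoxal reductase, stood at 5.87 and 2.72 against a median of 0.126 and a range of 0.0950 to 0.285, a change of 4.85 ± 0.41 (adjusted p = 3e-06). MSC1, a mitochondrial protein of unknown role, changed by 6.64 ± 0.57.

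Of the HOG targets 8 were higher at 50% than at 40% sucrose and none was lower, against 5.22% and 4.44% of all probe sets, and STL1, GPD1 and GRE2 were not among them. Most calls against 40%, and with them the counts, rest on single arrays. Only 6 of the 5498 probe sets passed without the first replicate at 40% and 21 without the second at 50%. The ratios at 40% were 11.3 and 4.78 for STL1, 8.81 and 1.96 for GPD1 and 4.62 and 3.41 for GRE2, and the 50% arrays differed from them by log2 changes of −0.32, 0.08 and 0.01 (adjusted p = 0.80, 0.95 and 0.99). GRE1, a hydrophilin of desiccation, was at 0.330 and 1.24 at 40% and at 7.75 and 10.8 at 50%, and that difference passed (3.84 ± 0.60, adjusted p = 0.0069), a call lost without the first replicate at 40% or the second at 50%. Of the 5 hydrophilins, small hydrophilic proteins that accumulate as cells dry, 4 rose against 5 to 20%, with a median of 5.72. Without sucrose the hydrophilin median against 5 to 20% was 4.83. HSP12, which stabilises membranes, stood at 3.4 and 3.67 against a median of 0.338 and a range of 0.268 to 0.487 (3.35 ± 0.41, adjusted p = 3.1e-05). SIP18 changed by 5.84 ± 0.41, STF2 by 5.72 ± 0.53 and GRE1 by 6.60 ± 0.49, the last from a median of 0.104 and a range of 0.0706 to 0.109 at 5 to 20%.

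The pathway's own components moved in both directions. Of 26 components 5 rose and 5 fell, each below the share called over all genes (22.3% and 27.5%), and after median centring 10 rose. The osmosensor MSB2 stood at 0.200 and 0.0808 against a median of 1.71 and a range of 1.41 to 2.53 (−3.85 ± 0.35, adjusted p = 4.2e-06), and the sensor kinase SLN1 at 0.417 and 0.223 against a median of 1.38 and a range of 1.13 to 1.55 (−2.16 ± 0.29, adjusted p = 5.8e-05). The phosphatase PTP2, which switches the kinase off, stood at 3.38 and 3.75 against a median of 0.734 and a range of 0.593 to 1.15 (2.20 ± 0.34, adjusted p = 0.00017). HOG1 itself was at 1.16 and 0.578 against a median of 1.16 and a range of 0.959 to 1.45 and did not pass, the 2 groups overlapping.

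Enzymes that break glycerol down rose too. Of the 6 genes of glycerol and dihydroxyacetone breakdown 5 rose, with a median of 2.21. GUT2, the mitochondrial glycerol 3-phosphate dehydrogenase, stood at 6.42 and 9.0 against a median of 0.288 and a range of 0.246 to 0.638 (4.40 ± 0.51, adjusted p = 2.4e-05). DAK1, the dihydroxyacetone kinase, changed by 1.85 ± 0.26, and the glycerol dehydrogenase GCY1 by 2.44 ± 0.34. GUT2 was higher at 50% than at 40%, where it was at 0.636 and 1.26 (3.08 ± 0.63, adjusted p = 0.015), and that call too was lost without the first replicate at 40% or the second at 50%.

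Storage carbohydrate genes were higher at 50% on both the synthesis and the breakdown side. Of 9 trehalose genes 6 rose (median 2.69) and of 10 glycogen genes 8 (median 3.04), and none fell. TPS1, the trehalose phosphate synthase, stood at 4.26 and 13.6 against a median of 0.392 and a range of 0.306 to 0.515, a change of 4.23 ± 0.42 (adjusted p = 7.6e-06). TSL1, a regulatory subunit of the same complex, changed by 3.4 ± 0.47. The neutral trehalase NTH1 stood at 3.05 and 2.52 against a median of 0.258 and a range of 0.230 to 0.538 and rose by 3.26 ± 0.40, and the acid trehalase ATH1 by 3.14 ± 0.39. On the arrays at 40% NTH1 was at 3.29 and 1.62, within 2-fold of the values at 50%, while TPS1 was at 1.55 and 1.37 and lower than at 50% (2.38 ± 0.51, adjusted p = 0.017), though not without the first replicate at 40% or the second at 50%. GLC3, the glycogen branching enzyme, had the largest change of its list, from a median of 0.358 (range 0.203 to 0.702) to 11.6 and 42.3 (5.90 ± 0.54, adjusted p = 4.5e-06). PIG2, a targeting subunit of the phosphatase that activates glycogen synthase, changed by 3.61 ± 0.31.

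Genes of gluconeogenesis and the glyoxylate cycle, which glucose represses, were higher at 50% sucrose than at 5 to 20%. Of 18 such genes 15 rose and none fell, and their median change on the log2 scale was 4.43. FBP1, the fructose bisphosphatase that reverses a step of glycolysis, stood at 9.90 and 22.7 against a median of 0.315 and a range of 0.0448 to 0.435, a change of 5.98 ± 0.83 (adjusted p = 8.5e-05). CAT8, the activator of gluconeogenic genes, stood at 4.86 and 14.8 against a median of 0.102 and a range of 0.0610 to 0.168 (6.35 ± 0.55, adjusted p = 3.2e-06). In both, the lower of the 2 arrays at 50% was more than 20-fold above the highest at 5 to 20%. MLS1, the malate synthase, changed by 4.99 ± 0.46, and SFC1, the mitochondrial exchanger of succinate and fumarate, by 5.88 ± 0.89. The citrate synthase CIT2 of the same list did not pass, at 0.436 and 0.912 against a median of 0.929 and a range of 0.808 to 1.61.

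Genes for the peroxisomal breakdown of fatty acids were higher as well. Of 13 genes 12 rose and 1 fell, with a median of 4.04. FOX2, the multifunctional enzyme of the pathway, stood at 14.5 and 74.6 against a median of 0.342 and a range of 0.0905 to 0.705 (6.82 ± 0.75, adjusted p = 1.7e-05), the acyl-CoA oxidase POX1 changed by 6.68 ± 0.96, the fatty acid transporter subunit PXA1 by 6.68 ± 1.07 and the thiolase POT1 by 6.53 ± 0.72. The gene that fell, PEX11, codes for a protein of peroxisome division (−1.43 ± 0.54, adjusted p = 0.042), a call that was lost when any of 6 arrays was left out, the first replicate at 50% among them. In the same 5 to 20% arrays as reference, the median change of the gluconeogenic list was 4.02 without sucrose, 0.52 at 30%, 1.78 at 40% and 4.43 at 50%. For the fatty acid list it was 3.50, 0.60, 1.36 and 4.04 at the same concentrations. All 4 values of a list share the reference arrays, so they are given side by side and not compared. The plot of list medians by sucrose concentration shows the course on the single arrays.

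**Figure D3:**
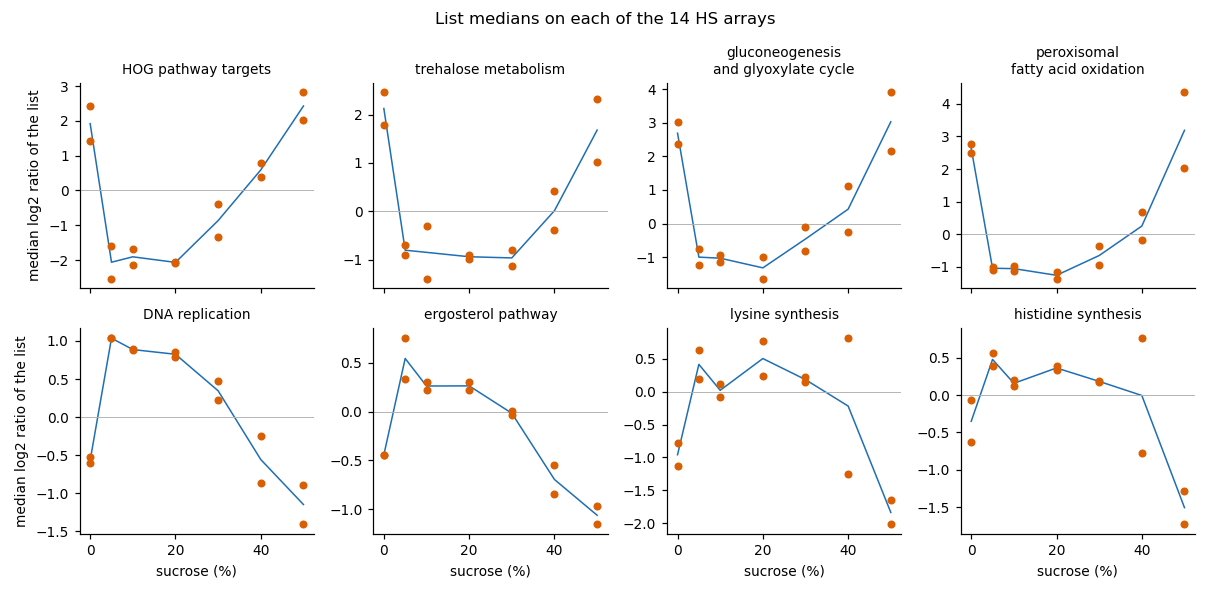
Median log2 ratio of the members of 8 gene lists on each of the 14 HS arrays (points, 2 per concentration) against sucrose concentration in percent, with a line through the means of the 2 arrays. The lists of HOG targets, gluconeogenesis, fatty acid oxidation and trehalose are high at 0 and 50% and low from 5 to 20%, while DNA replication, ergosterol, lysine and histidine synthesis are lowest at 50%.

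Genes of sugar entry and sensing showed no single direction. SUC2, which codes for invertase, stood at 0.353 and 0.704 at 50% against a median of 0.321 and a range of 0.112 to 0.361 at 5 to 20% and did not pass (0.90 ± 0.46, adjusted p = 0.12), while without sucrose it was at 1.37 and 2.58. HXT1, the low affinity glucose transporter that high glucose induces, stood at 1.82 and 0.900 against a median of 1.0 and a range of 0.658 to 1.84 (0.30 ± 0.51, adjusted p = 0.65), and at 0.0399 and 0.0857 without sucrose. For both genes the arrays at 50% overlapped those at 5 to 20% and lay apart from those without sucrose. Of 9 genes of sucrose and maltose use 4 rose, all of them maltose or isomaltose genes, or 2 without the second replicate at 50%. MAL31, a maltose permease, rose from a median of 0.316 (range 0.111 to 0.574) to 2.09 and 3.48 (3.26 ± 0.69, adjusted p = 0.0017). HXT5, a transporter made by slow-growing cells, rose from a median of 0.264 (range 0.182 to 0.375) to 3.96 and 4.79 (4.06 ± 0.47, adjusted p = 2.1e-05). Of 11 hexose transporters 5 rose, and 3 or 2 without the first or second replicate at 50%. MTH1, a corepressor of transporter genes that is destroyed when glucose is sensed, rose from a median of 0.230 (range 0.121 to 0.385) to 13.3 and 26.5 (6.42 ± 0.53, adjusted p = 2.8e-06), and the repressors MIG3 and MIG1 by 2.68 ± 0.53 and 1.99 ± 0.42. Of 13 genes of glucose sensing and repression 6 rose, which is above the share of 22.3% over all genes. After quantile normalization, or with each group weighted by its own spread, 4 rose, and 2 when a fold of at least 2 was required.

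Several enzymes that exist as a pair of related genes changed in opposite directions, and these pairs were chosen after their values were seen. HXK1, the hexokinase of derepressed cells, rose from a median of 0.304 (range 0.234 to 0.606) to 4.55 and 12.1 (4.46 ± 0.54, adjusted p = 3.2e-05). HXK2, the hexokinase of glucose-grown cells, fell from a median of 2.86 (range 2.54 to 4.14) to 0.784 and 0.510 (−2.29 ± 0.27, adjusted p = 2.8e-05). In the pentose phosphate pathway 5 of 11 genes rose and 5 fell, or 3 and 3 without the second replicate at 50%. NQM1, a transaldolase, rose from a median of 0.132 (range 0.0716 to 0.204) to 7.65 and 24.8 (6.79 ± 0.59, adjusted p = 3.1e-06), whereas the main transaldolase TAL1 stood at 0.594 and 0.419 against a median of 1.07 and a range of 0.953 to 1.93 (−1.33 ± 0.41, adjusted p = 0.017), a call that was lost without the second replicate at 50%. GND2, a 6-phosphogluconate dehydrogenase, rose by 5.11 ± 0.59, and the transketolase TKL2 by 5.32 ± 0.56, while TKL1 did not pass (−1.0 ± 0.46, adjusted p = 0.087). SOL3, a 6-phosphogluconolactonase, fell from a median of 1.97 (range 1.52 to 3.08) to 0.214 and 0.165 (−3.43 ± 0.28, adjusted p = 2.6e-06). CYC7, the cytochrome c isoform of low oxygen and stress, rose from a median of 0.0445 (range 0.0186 to 0.0719) to 3.19 and 7.15 (6.85 ± 0.71, adjusted p = 1.1e-05). CYC1, the main isoform, fell from a median of 1.09 (range 0.768 to 1.47) to 0.187 and 0.316 (−2.12 ± 0.37, adjusted p = 0.00042).

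**Figure D4:**
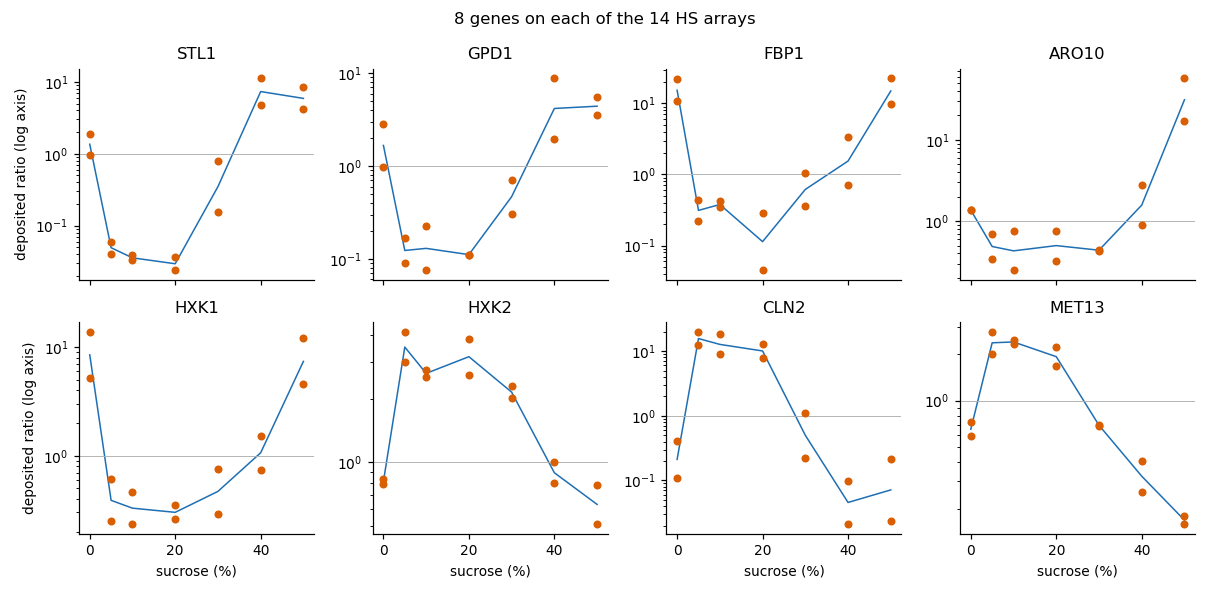
Deposited ratio (log axis) of 8 genes on each of the 14 HS arrays (points) against sucrose concentration in percent, with a line through the geometric means of the 2 arrays. STL1 and GPD1 have similar ratios at 40 and 50%, FBP1 and HXK1 are high at 0 and 50%, HXK2 and CLN2 are low at both ends, ARO10 rises at 50% and MET13 is lowest there.

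Most glycolytic genes did not pass. Of 16 glycolytic genes 3 rose and 3 fell, each below the share over all probe sets (22.3% and 27.5%). The glucokinase GLK1 changed by 3.22 ± 0.51 and the minor pyruvate kinase PYK2, whose call was lost without the second replicate at 50%, by 1.70 ± 0.54. PFK2, a subunit of phosphofructokinase, stood at 0.484 and 0.312 against a median of 1.13 and a range of 0.923 to 1.57 (−1.61 ± 0.30, adjusted p = 0.00064). PGK1, the phosphoglycerate kinase, stood at 0.559 and 0.519 against a median of 0.732 and a range of 0.569 to 1.79 and did not pass (adjusted p = 0.29). Among the enzymes between pyruvate and acetate, PDC6, a minor pyruvate decarboxylase, rose from a median of 0.195 (range 0.157 to 0.299) to 1.22 and 4.94 (3.55 ± 0.49, adjusted p = 8.5e-05) and the mitochondrial aldehyde dehydrogenase ALD4 by 3.50 ± 0.46. The cytosolic aldehyde dehydrogenase ALD3, which salt and other stresses induce, rose by 4.56 ± 0.69.

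Transcripts of mitochondrial metabolism were higher in part. Of 15 tricarboxylic acid cycle genes 11 rose and 1 fell, and 6 rose without the second replicate at 50%. CIT3, the mitochondrial isoenzyme of citrate and methylcitrate synthase, rose from a median of 0.581 (range 0.405 to 0.816) to 8.60 and 49.5 (5.19 ± 0.62, adjusted p = 2.9e-05), and the succinate dehydrogenase subunits SDH2 and SDH1 by 3.39 ± 0.50 and 2.75 ± 0.39. FUM1, the fumarase, fell from a median of 1.49 (range 1.11 to 2.07) to 0.261 and 0.599 (−1.93 ± 0.35, adjusted p = 0.00057). Of 36 genes of the respiratory chain and ATP synthase 18 rose and 2 fell, with 11 and 5 when the second replicate was left out. NDE2, the external NADH dehydrogenase of mitochondria, changed by 6.01 ± 0.50 and the cytochrome bc1 subunit QCR2 by 4.62 ± 0.49. Of 66 mitochondrial ribosomal proteins 24 rose and 1 fell (up to 3 without 1 array), with 14 rising without the second replicate and 15 after quantile normalization.

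Part of the chaperones rose. Of 32 heat shock proteins and chaperones 15 rose and none fell, with a median of 1.0. HSP26, a small heat shock protein that binds unfolded proteins, stood at 11.2 and 21.2 against a median of 0.554 and a range of 0.514 to 0.634 (4.77 ± 0.44, adjusted p = 4.7e-06), and HSP30, a regulator of the plasma membrane proton pump, at 5.56 and 16 against a median of 0.468 and a range of 0.368 to 0.688 (4.26 ± 0.56, adjusted p = 5.3e-05). The 2 arrays at 50% were more than 8-fold above all 6 at the lower concentrations for both. HSP104, the disaggregase, stood at 1.77 and 1.49 against a median of 0.726 and a range of 0.427 to 1.0, a smaller change (1.24 ± 0.42, adjusted p = 0.025) that lost its call without either array at 50%. SSA4, an inducible Hsp70, changed by 1.38 ± 0.32 (adjusted p = 0.0032). HSP82 and SSA1, abundant Hsp90 and Hsp70 chaperones, stood at 1.38 and 1.25 against a median of 0.630 and a range of 0.493 to 0.965 and at 1.33 and 1.04 against a median of 0.784 and a range of 0.621 to 1.27, and neither passed.

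Folding genes of the endoplasmic reticulum were more often lower. Of 18 folding genes 10 fell and 2 rose. EUG1, a protein disulfide isomerase, fell from a median of 2.03 (range 1.66 to 3.4) to 0.268 and 0.288 (−3.02 ± 0.29, adjusted p = 6e-06). ERO1, the oxidase that makes disulfide bonds, rose from a median of 0.924 (range 0.706 to 1.01) to 3.24 and 2.29 (1.64 ± 0.32, adjusted p = 0.001). Without the first replicate at 50% 4 rose.

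Proteasome subunits gave a different count on each array at 50%. Of 34 genes 4 rose and 0 fell, and without the first replicate 13 rose and 0 fell, against 2 and 4 without the second. RPN4, the transcription factor that drives these genes, stood at 2.06 and 2.43 against a median of 0.842 and a range of 0.561 to 1.11 and rose on both arrays (1.46 ± 0.27, adjusted p = 0.00066). PRE7, a subunit of the core particle, rose from a median of 0.703 (range 0.463 to 1.06) to 3.07 and 4.34 (2.33 ± 0.41, adjusted p = 0.00048). UBC8, a ubiquitin-conjugating enzyme that acts in the breakdown of fructose bisphosphatase, rose from a median of 0.646 (range 0.573 to 0.834) to 9.56 and 39.2 (4.89 ± 0.46, adjusted p = 5.3e-06).

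Among antioxidant enzymes 12 of 25 rose and 4 fell, and 2 fell without the second replicate at 50% or without the second at 20%. PRX1, the mitochondrial peroxiredoxin, rose from a median of 0.278 (range 0.0860 to 0.415) to 9.84 and 25.6 (5.96 ± 0.77, adjusted p = 4.9e-05), and the glutathione peroxidases GPX1 and HYR1 by 5.49 ± 0.64 and 4.90 ± 0.50. CTT1, the cytosolic catalase, stood at 2.13 and 12.9 against a median of 0.174 and a range of 0.119 to 0.313 (4.82 ± 0.56, adjusted p = 2.2e-05). SOD2, the mitochondrial superoxide dismutase, rose by 4.47 ± 0.50. TRR1, the cytosolic thioredoxin reductase, changed by −1.5 ± 0.35. The aldehyde reductase GRE3 changed by 2.77 ± 0.33, and of 18 genes for methylglyoxal and aldehyde reductases 10 rose and none fell.

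Genes of autophagy and of the vacuole were more often higher than lower. Of 34 autophagy genes 21 rose and 2 fell, with a median of 1.53. Without the second replicate at 50% fewer rose and more fell, with a median of 1.03. Without sucrose the median against the same 5 to 20% arrays was 1.78. ATG8, the ubiquitin-like protein that coats the growing autophagosome, stood at 4.92 and 17.4 against a median of 0.346 and a range of 0.203 to 0.433 (4.87 ± 0.43, adjusted p = 3.2e-06). ATG34 and ATG40, receptors that pick the cargo, changed by 4.82 ± 0.57 and 4.37 ± 0.49, and ATG7, the enzyme that activates Atg8 and Atg12, by 3.89 ± 0.59. Of 14 vacuolar hydrolases and inhibitors 7 rose and 2 fell, while 1 fell after quantile normalization or median centring and without any of 5 single arrays (the first at 50%, the second at 10 and 20% and both at 5%), and 3 without the second at 50%. AMS1, the vacuolar alpha-mannosidase, rose from a median of 0.350 (range 0.162 to 0.546) to 8.34 and 54.6 (6.15 ± 0.62, adjusted p = 8.7e-06), and PBI2, an inhibitor of proteinase B, by 5.03 ± 0.62. CPS1, the vacuolar carboxypeptidase S, went the other way, from a median of 4.66 (range 3.68 to 6.72) to 0.133 and 0.336 (−4.50 ± 0.37, adjusted p = 2.8e-06).

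Cell cycle genes fell at the G1 to S boundary. Of 20 G1 and S phase regulators 15 fell and 2 rose, with a median log2 change of −2.98 and a share of 27.5% called lower over all genes. CLN1, the second G1 cyclin of the pair with CLN2, stood at 0.370 and 0.331 against a median of 5.54 and a range of 3.95 to 9.27 (−3.98 ± 0.50, adjusted p = 4.1e-05). YOX1, a repressor of early cell cycle genes, stood at 0.412 and 0.223 against a median of 6.11 and a range of 4.58 to 11.5 (−4.42 ± 0.54, adjusted p = 3.2e-05). CLN3, the cyclin that starts the programme, fell less, from a median of 1.41 (range 1.11 to 1.83) to 0.453 and 0.238 (−2.13 ± 0.36, adjusted p = 0.00037). The genes that rose were PCL9, a Pho85 cyclin of late M and early G1 (1.85 ± 0.31), and SIC1, the inhibitor that holds S phase cyclins in check (1.47 ± 0.53, adjusted p = 0.035), whose call was lost when any of 5 arrays was left out, either array at 50% among them. CLN2 was already low at 30% sucrose, with ratios of 1.11 and 0.224, and at 0.0211 and 0.0988 at 40%.

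Genes of the replication machinery fell. Of 36 DNA replication genes 32 fell and none rose, with a median of −2.01. MCM7, a subunit of the replicative helicase, stood at 0.113 and 0.196 against a median of 2.37 and a range of 1.51 to 2.71 (−3.89 ± 0.33, adjusted p = 3e-06). RFC5, a subunit of the clamp loader, changed by −4.01 ± 0.39, the origin licensing factor CDC6 by −3.94 ± 0.43, and the sliding clamp POL30 from a median of 2.25 (range 1.87 to 3.07) to 0.176 and 0.200 (−3.62 ± 0.30). For MCM7 and POL30 the 50% arrays lay more than 7-fold below the lowest of the 6 others. Of 9 histone genes 3 fell, HTA2 with −3.55 ± 0.54, HTB2 with −2.39 ± 0.42 and HHT2 with −1.69 ± 0.35. A second probe set for HTA2, whose suffix marks it as shared with similar genes, did not pass, and histone genes are near-identical copies that an array may not keep apart. Of 19 mitotic regulators 3 were higher and 5 lower, or 2 lower without the second replicate at 50%. Both counts lay below the shares over all probe sets, 22.3% higher and 27.5% lower. CDC20, an activator of the anaphase promoting complex, was among the higher ones, at 3.12 and 2.67 against a median of 0.922 and a range of 0.529 to 1.26 (1.71 ± 0.34, adjusted p = 0.0011).

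At the cell surface, mannoproteins of the DAN and TIR family were lower, and so was part of the cell wall remodelling genes. Of 8 DAN and TIR genes, which cells make when oxygen is short or in the cold, 6 fell and none rose (median −3.04). TIR1 stood at 0.132 and 0.199 against a median of 5.52 and a range of 4.76 to 9.96 (−5.27 ± 0.37, adjusted p = 1.7e-06) and TIR3 at 0.0663 and 0.119 against a median of 2.07 and a range of 1.69 to 2.99 (−4.60 ± 0.42, adjusted p = 4.5e-06). DAN1 changed by −3.04 ± 0.67, and TIR2 did not pass (−0.82 ± 0.46, adjusted p = 0.16). Of 28 cell wall remodelling genes 13 fell and 4 rose. UTR2 and CRH1, which link chitin to glucan, changed by −4.26 ± 0.48 and −3.47 ± 0.39. SPI1, a wall protein of stationary phase, rose from a median of 0.304 (range 0.193 to 0.370) to 2.38 and 4.09 (3.43 ± 0.41, adjusted p = 2.9e-05), and CWP1, a mannoprotein of the cell wall, by 2.80 ± 0.37. The PIR family, covalently bound wall proteins, held 3 genes that fell, or 1 without the second replicate at 50%, and 1 that rose but not without that replicate. Of 10 flocculins and their regulators 7 fell, or 4 without the second replicate at 50%, and 2 rose, none of them without that replicate. FLO8, the activator of flocculin genes, changed by −2.20 ± 0.37.

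Transcripts of sterol synthesis were lower along most of the pathway. Of 26 ergosterol genes 20 fell and 1 rose, with a median of −1.41, and 2 rose without the first replicate at 50%. ERG3, the C-5 desaturase of the late steps, stood at 0.173 and 0.102 against a median of 1.51 and a range of 1.34 to 2.38 (−3.62 ± 0.34, adjusted p = 5.3e-06), and was at 0.870 and 0.412 at 40%, a difference that passed as well (−2.17 ± 0.42, adjusted p = 0.013) but not when the first replicate at 40% or the second at 50% was left out. ERG4, which makes the last step, changed by −3.09 ± 0.27, the C-14 reductase ERG24 by −3.04 ± 0.36 and the mevalonate pathway decarboxylase MVD1 by −3.03 ± 0.31. IDI1, the isopentenyl diphosphate isomerase and the exception, rose from a median of 0.827 (range 0.774 to 1.03) to 3.01 and 2.81 (1.78 ± 0.28, adjusted p = 0.00023). ERG11, the C-14 demethylase, stood at 0.679 and 0.573 against a median of 1.01 and a range of 0.883 to 1.69 and did not pass (adjusted p = 0.072).

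The fatty acid genes were split. Of 15 genes of fatty acid synthesis and desaturation 6 fell and 2 rose (1 without the second replicate at 50%), with a median of −0.16. ELO2, an elongase of very long chain fatty acids, fell from a median of 1.5 (range 1.31 to 2.54) to 0.110 and 0.0829 (−4.10 ± 0.36, adjusted p = 3.2e-06). IFA38, PHS1 and ELO1, further enzymes of elongation and with ELO2 the members that fell most, changed by −4.26 ± 0.31, −3.68 ± 0.40 and −3.72 ± 0.45. FAS1, a subunit of fatty acid synthase, stood at 0.446 and 1.22 against a median of 1.06 and a range of 0.944 to 1.61 (adjusted p = 0.19), and OLE1, the desaturase, at 1.38 and 1.68 against a median of 1.02 and a range of 0.373 to 1.12 (adjusted p = 0.091). INO1, the inositol phosphate synthase of phospholipid synthesis, rose from a median of 0.737 (range 0.431 to 1.02) to 1.66 and 4.18 (1.95 ± 0.48, adjusted p = 0.0047), a call that was lost without the second replicate at 50%. The cholinephosphotransferase CPT1 changed by −3.26 ± 0.31, one of 6 phospholipid genes that fell of 16. Of 19 sphingolipid genes 8 fell and 4 rose (2 without the second replicate at 50%). LAC1, a ceramide synthase subunit, fell from a median of 1.07 (range 0.918 to 1.34) to 0.357 and 0.15 (−2.25 ± 0.32, adjusted p = 0.0001). YPC1, a ceramidase, rose from a median of 0.232 (range 0.206 to 0.282) to 0.894 and 1.49 (2.26 ± 0.40, adjusted p = 0.00047).

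Most genes of lysine, histidine and arginine synthesis fell. Of 10 lysine genes 8 fell (median −2.01), of 7 histidine genes 7 (−1.84) and of 8 arginine genes 7 (−1.91), and none rose. Without the second replicate at 50% the count for histidine was 4. LYS9, the saccharopine dehydrogenase, stood at 0.0518 and 0.235 against a median of 1.18 and a range of 0.888 to 1.98 (−3.56 ± 0.61, adjusted p = 0.00037). LYS1, the enzyme of the last step to lysine, stood at 0.148 and 0.123 against a median of 1.19 and a range of 0.946 to 1.51 (−3.18 ± 0.40, adjusted p = 3.8e-05), and at 1.55 and 0.400 on the 40% arrays. HIS7, an enzyme of the middle of the histidine pathway, stood at 0.165 and 0.0952 against a median of 1.10 and a range of 1.05 to 1.35 (−3.19 ± 0.33, adjusted p = 9.9e-06). Against 40% sucrose 4 lysine, 4 histidine and 3 arginine genes were lower at 50%, where 4.44% of all probe sets were. In that comparison LYS1 changed by −2.54 ± 0.49 (adjusted p = 0.013) and HIS7 by −2.44 ± 0.40 (adjusted p = 0.0079), and both calls were lost without the first replicate at 40% or the second at 50%. Without the first replicate at 40% no probe set was called lower, so all of these list counts are lost there as well. Taking the 5 to 20% arrays as reference, the median change of the lysine, histidine and arginine lists was −0.68, −0.30 and −0.56 at 40% and −1.22, −0.69 and −0.45 without sucrose. GCN4, the activator of amino acid synthesis genes, stood at 1.10 and 0.919 against a median of 1.02 and a range of 0.898 to 2.12 and did not pass (−0.28 ± 0.53, adjusted p = 0.69). Its activity is set mainly at the level of translation, which an array does not read.

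The aromatic amino acid list held genes that fell and genes that rose. Of 13 genes 8 fell and 2 rose. ARO1, which carries out several steps of the shared pathway, fell from a median of 1.40 (range 1.30 to 1.95) to 0.114 and 0.320 (−2.99 ± 0.47, adjusted p = 0.0002). The genes that rose code for the breakdown of aromatic amino acids to fusel alcohols. ARO10, a phenylpyruvate decarboxylase, rose from a median of 0.520 (range 0.248 to 0.763) to 16.9 and 57.3 (6.05 ± 0.57, adjusted p = 5.2e-06), and ARO9, the aromatic aminotransferase, from a median of 0.802 (range 0.418 to 1.02) to 8.04 and 6.11 (3.26 ± 0.38, adjusted p = 2.2e-05). Without sucrose ARO10 was at 1.35 and 1.37 and ARO9 at 0.548 and 0.441, both below the 50% arrays. ARO9 was already at 3.79 and 5.84 at 40%, while ARO10 was at 0.892 and 2.77 (4.31 ± 0.70 for 50% against 40%, adjusted p = 0.0075, a call lost without the first replicate at 40% or the second at 50%).

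Sulfur and branched-chain amino acid genes fell in part. Of 29 genes of sulfate assimilation and methionine 11 fell and 3 rose, while 7 fell without the second replicate at 50% and none of the rises kept its call without the first. MET13, a methylenetetrahydrofolate reductase, fell from a median of 2.28 (range 1.66 to 2.77) to 0.179 and 0.159 (−3.71 ± 0.26, adjusted p = 1.7e-06). Of 12 branched-chain genes 7 fell, but 1 without the second replicate, and of 17 purine genes 11 fell, against 5 and 4 without the first and second. LEU2, the isopropylmalate dehydrogenase, fell from a median of 1.67 (range 1.59 to 2.58) to 0.514 and 0.289 (−2.28 ± 0.39, adjusted p = 0.00035).

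Genes of nitrogen use were split. Of 23 genes that a good nitrogen source represses 9 fell and 5 rose, or 3 after quantile normalization. CAR1, the arginase, rose from a median of 0.436 (range 0.328 to 0.705) to 3.33 and 7.42 (3.41 ± 0.39, adjusted p = 2e-05), and PUT2, an enzyme of proline breakdown, by 2.76 ± 0.30. The ammonium permease MEP3 fell from a median of 4.43 (range 2.49 to 5.35) to 1.14 and 0.306 (−2.72 ± 0.49, adjusted p = 0.00058). The 8 allantoin genes, which let cells use purine breakdown products as nitrogen, held 6 that fell and none that rose (median −2.21). DAL5, an allantoate permease, stood at 0.238 and 0.361 against a median of 2.63 and a range of 1.96 to 5.03 (−3.34 ± 0.51, adjusted p = 0.00017), and DAL2, the allantoicase, at 1.5 and 0.415 against a median of 6.60 and a range of 5.30 to 9.42 (−3.11 ± 0.47, adjusted p = 0.00015). DIP5, the dicarboxylic amino acid permease, fell from a median of 2.64 (range 2.11 to 4.54) to 0.0412 and 0.187 (−5.04 ± 0.52, adjusted p = 1.1e-05). BAP2, a permease of branched-chain amino acids, rose from a median of 0.124 (range 0.100 to 0.257) to 2.13 and 1.47 (3.64 ± 0.47, adjusted p = 4.6e-05). Of 20 amino acid permeases 8 fell and 5 rose, with 4 falling without the second replicate and 3 rising without the first. Of 16 thiamine and pyridoxine genes 3 rose and 4 fell, each below the share over all probe sets (22.3% and 27.5%). THI4, which makes the thiazole ring, rose from a median of 0.111 (range 0.0681 to 0.146) to 2.03 and 2.90 (4.48 ± 0.44, adjusted p = 7e-06), and THI2, their activator, by 3.09 ± 0.43. Of 6 biotin genes 5 fell, or 3 without the second replicate, BIO5, a transporter of a biotin precursor, by −2.71 ± 0.53.

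Metal uptake genes were lower in part. Of 8 ferric reductases, which prepare iron and copper for uptake, 5 fell and none rose (median −1.65). FRE1 fell from a median of 3.05 (range 2.22 to 4.05) to 0.520 and 0.358 (−2.78 ± 0.36, adjusted p = 4.5e-05). Of 15 iron uptake genes 6 fell and 2 rose, with 3 falling without the second replicate at 50% and 1 rising without the first. HMX1, the heme oxygenase, rose by 2.36 ± 0.51. ZRT1, the high affinity zinc transporter, fell from a median of 1.0 (range 0.823 to 1.5) to 0.0789 and 0.325 (−2.72 ± 0.45, adjusted p = 0.00033), and CRS5, a copper-binding metallothionein, rose from a median of 0.655 (range 0.591 to 0.750) to 2.36 and 5.58 (2.45 ± 0.29, adjusted p = 2.8e-05).

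Of the lists of translation genes, those of ribosomal proteins, ribosome biogenesis and translation factors held smaller shares of falls than the 27.5% of all probe sets, and the counts depended on single arrays. Of 127 cytosolic ribosomal proteins 24 fell and none rose, with a median of −0.51. Without the second replicate at 50% 8 fell. RPS28B stood at 0.356 and 0.136 against a median of 1.09 and a range of 0.938 to 1.58 (−2.41 ± 0.35, adjusted p = 0.00013), and most ribosomal proteins have a near-identical copy whose transcript may share its probes. Of 52 ribosome biogenesis genes 11 fell and 2 rose, and the number that fell was 22 without the first replicate at 50% and 1 without the second, where the list's median turned from −0.35 to 0.17. It was 7 after quantile normalization or median centring and without any of 5 arrays at 5 to 20% (the second at 5% and both at 10 and 20%), and 1 rose without either array at 50%. Of 21 subunits of RNA polymerases I and III 11 fell and 1 rose, with 4 falling without the second replicate and 7 after quantile normalization. Of 23 translation factors 6 fell, or 2 without the second replicate. RPC31, a subunit of RNA polymerase III, fell from a median of 1.84 (range 1.71 to 2.02) to 0.725 and 0.287 (−2.03 ± 0.34, adjusted p = 0.00033).

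Against the nearest concentration, 40% sucrose, fewer genes differed. Of 5498 probe sets 531 passed (9.66%), 287 of them higher (5.22%) and 244 lower (4.44%) at 50%. Most of these calls rested on single arrays: leaving out the first or second replicate at 40% left 6 or 829, and leaving out the first or second at 50% left 1376 or 21. Quantile normalization left 62, and with each group weighted by its own spread, or with all 28 arrays in the fit, none passed, although 1597 had an unadjusted p under 0.05 in the limma fit of the 14 HS arrays. The S. pombe probe sets had median ratios of 0.288 and 0.120 at 40% against 0.385 and 0.15 at 50%, and the replicates at 40% correlated least of the HS pairs (0.471). The part of these differences in the result was not tested.

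The largest rises from 40 to 50% were in YMR206W, YOR008C-A and YMR175W-A, whose products are of unknown function, and in USV1 and YGR067C, both zinc finger proteins. USV1 was at 1.23 and 1.05 at 40% and at 35.3 and 80.3 at 50%, a log2 change of 5.55 ± 1.07 (adjusted p = 0.014). YMR206W was at 0.0326 and 0.341 against 7.28 and 25.6 (7.01 ± 1.25, adjusted p = 0.010). YOR008C-A was at 0.0229 and 0.0208 at 40%, near the lowest deposited value of 0.01, and at 2.60 and 2.0 at 50%. Its log2 change at 50% was 6.71 against 40% and 1.39 against 5 to 20%. The latter was called in 3 of 8 fits that left out 1 array. Its mean level at 40% thus lay below that at 5 to 20%, and the large difference reflects mostly the low ratios at 40%. The largest falls were in YLR460C, a quinone oxidoreductase-like gene, the permease DIP5, the urea and polyamine transporter DUR3, the asparagine synthetase ASN1 and the acid phosphatase PHO3. DIP5 was at 2.35 and 0.818 at 40% and 0.0412 and 0.187 at 50% (−3.98 ± 0.64, adjusted p = 0.0075), ASN1 at 5.13 and 1.23 and 0.403 and 0.246 (−3.00 ± 0.57, adjusted p = 0.013), and DUR3 at 8.02 and 1.83 and 0.529 and 0.319 (−3.22 ± 0.60, adjusted p = 0.011). The arrays at 40% and 50% did not overlap for any of these genes with values given, and for USV1, YMR206W, ASN1 and DUR3 the call was lost without the first replicate at 40% or the second at 50%, and for DIP5 without the first. YOR008C-A kept its call against 40% in all 4 fits that left out 1 array. With all 28 arrays or with weights by group, each of the 17 called genes named for this comparison lost its call.

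The response of HS was set against that of LS with an interaction term. The HS minus LS difference of the change from 5 to 20% to 50% passed for 36 of 5498 probe sets (0.655%), 24 higher (0.437%) and 12 lower (0.218%) in HS. The second replicates of LS at 0, 5, 10, 20, 30 and 50% had median S. pombe ratios above 1, and without these 6 arrays 1091 probe sets passed (19.8%), 580 higher (10.5%) and 511 lower (9.29%). The LS replicates at 0 to 30% correlated at −0.22 to 0.02 across probe sets and those at 50% at 0.50, with SDs within the pair of 1.33 to 1.70 and 1.44 on the log2 scale, against correlations of 0.47 to 0.72 and SDs of 0.49 to 0.82 for the 7 HS pairs. The count depends on which LS arrays enter, and without those 6 LS has 1 array at 50% and 3 at 5 to 20%, whose spread is taken from the other groups. Leaving out 1 array at a time gave between 8, without the first HS replicate at 50%, and 304, without the first LS replicate at 50%, and also 63 and 95 without the second LS replicates at 5 and 10%.

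**Figure D5:**
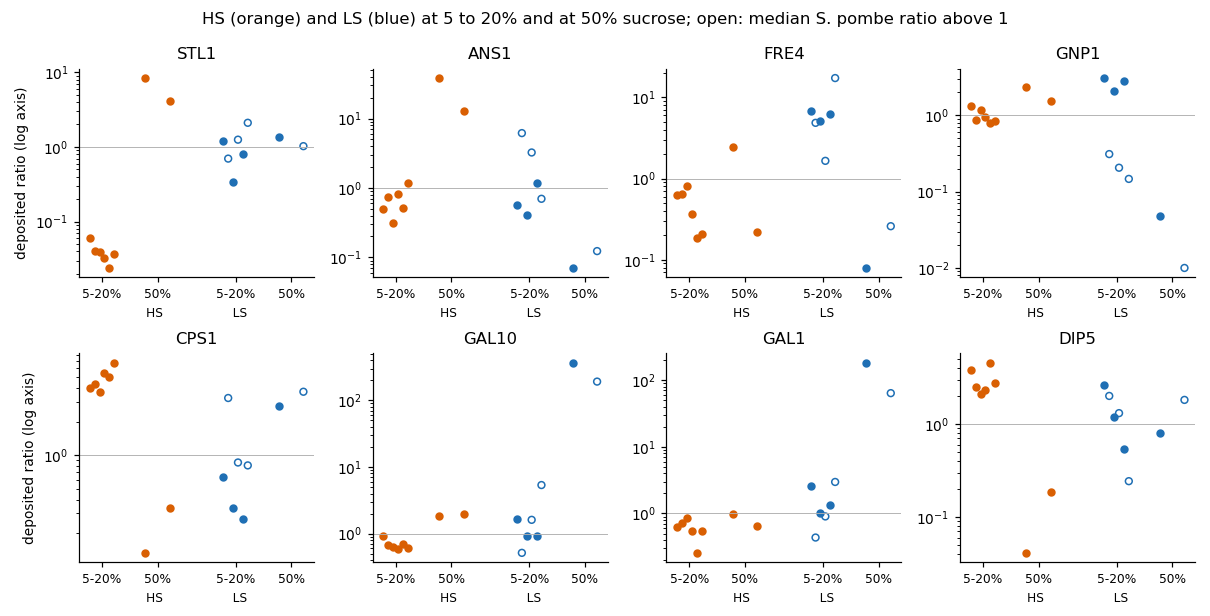
Deposited ratio (log axis) of 8 genes in HS (orange) and LS (blue) at 5 to 20% sucrose (6 arrays each) and at 50% (2 arrays each). Filled points are arrays with a median S. pombe ratio below 1 and open points the LS arrays above it. STL1 rises at 50% in HS and not in LS, and GAL10 and GAL1 are far higher at 50% in LS than in HS.

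STL1 was among the genes that separated the yeasts. In HS it rose from a median of 0.0374 (range 0.0239 to 0.0594) to 8.38 and 4.14, and in LS it stood at 1.35 and 1.02 at 50% against a median of 1.01 and a range of 0.335 to 2.11 at 5 to 20%. The yeasts differed at 5 to 20%, where all 6 LS arrays lay above all 6 HS arrays, and HS exceeded LS at 50%. The difference of the 2 log2 changes was 6.95 ± 0.95 (adjusted p = 0.00064), and 6.34 without the 6 LS arrays (adjusted p = 0.00077). ANS1, which codes for a putative protein with a lipid anchor, rose in HS from a median of 0.626 (range 0.311 to 1.18) to 38.4 and 12.9. In LS it stood at 0.0703 and 0.123 at 50% against a median of 0.947 and a range of 0.409 to 6.18 at 5 to 20% (difference 8.92 ± 1.24, adjusted p = 0.00064). FRE4, a ferric reductase, changed by 0.84 in HS and by −5.28 in LS (6.12 ± 1.22, adjusted p = 0.014). GNP1, a glutamine permease, changed by 0.97 in HS and by −5.09 in LS (6.06 ± 1.41, adjusted p = 0.039). YMR230W-A, of unknown function, differed by 6.55 ± 1.48 (adjusted p = 0.032).

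On the other side, CPS1 fell in HS and stood at 2.78 and 3.71 at 50% against a median of 0.725 and a range of 0.269 to 3.26 in LS (−6.67 ± 1.01, adjusted p = 0.0011). GAL10 and GAL1, the epimerase and kinase of galactose use, were at 363 and 191 and at 180.3 and 63.6 at 50% in LS, against a median of 1.27 and a range of 0.515 to 5.36 and a median of 1.18 and a range of 0.436 to 2.97 at 5 to 20%. In HS they stood at 1.85 and 1.96 and at 0.998 and 0.655 at 50%, so the difference was −6.11 ± 0.92 (adjusted p = 0.0011) and −5.86 ± 0.94 (adjusted p = 0.0017). DIP5 and the septin-associated kinase KCC4 fell in HS and were at 0.801 and 1.82 and 0.662 and 4.03 at 50% in LS (−5.30 ± 1.24 and −5.25 ± 1.18, adjusted p = 0.042 and 0.032). TIR1, DAL2 and DUR3, picked here because they are described above, were lower in HS relative to LS as well (−5.06 ± 0.98, −4.73 ± 1.06 and −3.54 ± 0.78, adjusted p = 0.010, 0.032 and 0.028), and stayed called in 14, 8 and 12 of the 16 fits that left out 1 array. GPD1 did not pass with all 28 arrays (3.62 ± 1.01, adjusted p = 0.083), which does not show that it responded alike in the yeasts. GPD1 gained the call after quantile normalization and with the replicate number as a block. Its difference was 2.68 to 4.57 when 1 array was left out. Of the 10 genes named first in these paragraphs, STL1, ANS1, CPS1, GAL10 and GAL1 stayed called when any single array was left out, and the others each lost the call without at least 1 array. With each group weighted by its own spread, 11 of the 13 called genes lost the call, and CPS1 and GAL10 kept it.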

How the data were processed

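Poly(A) RNA of 28 samples was measured on Affymetrix arrays that carry S. cerevisiae and S. pombe probes. The deposited values are ratios that the authors scaled per chip, on genes with positive values and without S. pombe, and then per gene in GeneSpring 7.0, per the series' design text. The summary over probes is not stated in the sources used here, and signal over background was not analysed here. A single gene symbol was attached to 7244 of 10928 probe sets, several symbols to 1 and no symbol to 3683, and 12 symbols were updated by locus. The per-gene median was 1 (within 0.006) for 97.7% of the S. cerevisiae probe sets. Values ran from 0.01 to 532.3.

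The log2 ratios were fitted with limma 3.58.1 in R 4.3.3 over the 14 HS arrays, with groups of 0, 5 to 20, 30, 40 and 50% sucrose, or over all 28 arrays for the HS minus LS difference. P-values were 2-sided and adjusted by Benjamini-Hochberg over 5498 probe sets, with a call under 0.05. The fit was also run on simulated data, in which each probe set had the same spread on all HS arrays. That run cannot show how the fit behaves with the wider spread at 50%. Errors are standard errors of the fit. A gene with several probe sets (47 genes) is given by the one without a suffix for shared probes. The members, the 66 gene lists and the tests were chosen with earlier results of these data known. Named genes were the 10 largest rises and falls without overlap, for each list with 3 or more calls up to 4 called members that changed most, and a fixed set of 16 genes. For the other comparisons they were the 5 largest rises and falls. Promoter motifs were not analysed here. All other genes named were chosen after their values were seen. Alternatives changed the scaling, the offset, the variance model, the arrays in the fit, the reference concentration, the probe sets tested and the required fold, and left out single arrays. Weights by group were added after seeing the data. Same-numbered replicates deviated together with correlations of −0.02 to 0.43 over 21 pairs of concentrations (median 0.29). The main fit did not take the numbers as pairs, and a fit with the number as a block was among the alternatives.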

Additional observations from a re-analysis of the deposited data

Results flagged for a closer look

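In 15 of the 188 genes named for 50% against 5 to 20% sucrose (7.98%), 1 of the 6 arrays at 5 to 20% stood apart from the others, with a gap to its neighbour that took a share of the group's log2 range above Dixon's limit. Chance flags about 1 in 20 groups, and over all genes, with 1 probe set for each, the share was 7.25%. The first array at 20% was the lowest for FBP1 (0.708 of the range), PEX11 (0.734), PRX1 (0.660), SFC1 (0.657) and SUC2 (0.648), and the highest for IDI1 (0.660). The first array at 5% was the highest for CLB6 (0.666), PHS1 (0.678), RNR1 (0.639) and STF2 (0.663), and the lowest for PXA1 (0.789). The second array at 5% was the lowest for POX1 (0.695). The first array at 10% was the highest for ATH1 (0.708) and the lowest for SIP18 (0.678), and the second at 20% was the highest for NTH1 (0.703).

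For 13 named genes the log2 change from 5 to 20% to 50% sucrose differed between HS and LS by the interaction term (limma, all 28 arrays). HS minus LS was positive for ANS1 (8.92), STL1 (6.95), YMR230W-A (6.55), FRE4 (6.12) and GNP1 (6.06). It was negative for CPS1 (−6.67), GAL10 (−6.11), GAL1 (−5.86), DIP5 (−5.30), KCC4 (−5.25), TIR1 (−5.06), DAL2 (−4.73) and DUR3 (−3.54). Without the 6 LS arrays of high S. pombe signal the sign was the same for all 13, and the range was −7.34 to 8.38. The 6 LS arrays' part in these differences was measured only by that comparison.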

How the results depend on the processing

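For 50% against 5 to 20% the count of 2740 stayed within 1.5 times under 12 alternatives (1930 to 3101), and moved to 1009 (a fold of at least 2), 934 (all 28 arrays) and 1758 (weights by group, added after seeing the data). Leaving out 1 array gave 2073 to 2717. Of the 171 called genes named, 9 lost the call without at least 1 array, 31 with all 28 arrays, 21 with the required fold and at most 8 under any other alternative. No called gene reversed. Among genes not called, the sign turned for GCN4 (0.093 against 10% alone), HOR7 (−0.085 against 20% alone), HXT1 (−0.26 against 20% alone), and within the ranges without 1 array for HXT1 (−0.21 to 0.81), FAS1 (−1.35 to 0.10), FRE4 (−0.88 to 2.57) and GPD2 (−1.88 to 0.35). For 50% against 40%, 531 became 62 (quantile normalization), 914 (replicate block), 0 (all 28 arrays) and 0 (weights by group), and 6 to 1376 without 1 array. There the uncalled changes of GPD1 and GRE2 turned to −1.03 and −1.05 after quantile normalization, and leaving out 1 array gave −1.0 to 1.16 for GPD1 (−0.24 without another), −0.55 to 0.57 for GRE2 (−0.21 without another) and −0.93 to 0.30 for STL1 (0.19 without another). For the HS minus LS difference 36 became 81 (quantile normalization), 86 (replicate block), 1091 (without the 6 LS arrays) and 6 (weights by group), and 8 to 304 without 1 array. The cause was not tested, apart from the fewer arrays or the stricter requirement that an alternative itself sets. For the first comparison the replicate numbers were not taken as pairs. The reason was the low correlation of deviations at 50% with those at 5, 10 and 20%, at 0.01, −0.02 and 0.17. With those at 40% it was 0.31, and the median over the 21 pairs of concentrations was 0.29. For 50% against 40% that reason is weaker, and the main fit held no replicate term there either. With the number as a replicate block, 3101 passed in the first comparison, and no called gene named lost its call. Leaving out 1 array added a single opposite call to the glycerol synthesis, trehalose, methylglyoxal reductase, ferric reductase, branched-chain, glucose sensing and meiosis lists. Precision is limited by the 2 arrays at 50%.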

Other observations

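Genes of meiosis, mating, DNA damage, drug efflux and the cell wall integrity pathway are described by no comparison above. Of 25 meiosis and sporulation genes 7 rose and none fell (median 0.78), against 22.3% of all probe sets that rose. SPR3, a septin of sporulation, stood at 3.47 and 6.36 at 50% against a median of 0.588 and a range of 0.114 to 1.06 at 5 to 20% (3.35 ± 0.70, limma adjusted p = 0.0015). Of 20 mating genes 3 rose and 3 fell, each below the share over all probe sets (22.3% and 27.5%). After quantile normalization or median centring, and without the second array at 10 or 20%, 1 fell. MFA1, which codes for the a-factor pheromone, rose from a median of 0.588 (range 0.434 to 0.792) to 2.67 and 6.2 (2.82 ± 0.35, adjusted p = 3.6e-05), and was already at 4.41 and 3.04 at 40%.

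Of 16 DNA damage genes 6 fell and 4 rose (2 without the first array at 50%). MAG1, a DNA glycosylase, rose from a median of 0.296 (range 0.236 to 0.422) to 1.64 and 13.4 (3.94 ± 0.56, adjusted p = 9.4e-05), whereas RNR3, the damage-inducible large subunit of ribonucleotide reductase, fell from a median of 3.62 (range 3.30 to 6.16) to 0.436 and 0.410 (−3.26 ± 0.34, adjusted p = 1.1e-05). Of 20 genes of drug efflux 5 fell and 4 rose, each below the share over all probe sets (27.5% and 22.3%). PDR5, the main multidrug pump, fell from a median of 1.5 (range 0.923 to 1.73) to 0.560 and 0.294 (−1.77 ± 0.33, adjusted p = 0.0007), and PDR10, a related transporter, rose from a median of 0.528 (range 0.232 to 0.965) to 4.10 and 11.9 (3.77 ± 0.55, adjusted p = 0.00013). Of 17 genes of the cell wall integrity pathway 3 fell and 3 rose, each below those shares as well. No rise in that pathway kept its call without the second array at 50%. Its stress sensor WSC2 fell from a median of 2.49 (range 1.40 to 7.50) to 0.409 and 0.306 (−3.04 ± 0.59, adjusted p = 0.00099).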
